A study of Mus musculus with 8 samples.

Results

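The Zbtb genes encode transcription factors that join a BTB domain to a row of zinc fingers, the family to which Bcl6 belongs. Their probes were followed in mouse bone marrow-derived macrophages, a cell grown from marrow precursors, on single-colour Illumina bead arrays. Every probe whose platform symbol starts with Zbtb and a number was taken, which gave 68 of the 45281 probes of the array, and 38 of the 19057 genes that it names by a single symbol. Bcl6 itself was not counted. A change was read only where the detection p, which sets a probe against the negative controls of its array, was under 0.01 on at least 2 arrays. That left 28 Zbtb probes of 19 genes among 14418 probes, and 22 of the 28 were detected on all 8 arrays. The symbol rule also takes in Zbtb8os, whose product archease is not a BTB zinc-finger protein, so 37 of the 38 genes belong to the family by structure.

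Total RNA came from 4 groups of cells: LPS-stimulated macrophages labelled Bcl6-/-, LPS-stimulated wild-type macrophages, unstimulated macrophages labelled Bcl6-/- and unstimulated wild-type macrophages. LPS is the bacterial lipopolysaccharide that Toll-like receptor 4 senses. All cells came from male mice aged 10 weeks on the c57Bl6/J background, and neither the dose nor the duration of LPS is given in the sources used here. Each group had 2 arrays, which the labels call technical replicates, so every p-value below measures only the spread between such arrays and not that between mice or cultures.

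The BTB domain pairs these proteins and recruits corepressor complexes with Ncor1 or Bcor and histone deacetylases, or the Cul3 ubiquitin ligase, while the zinc fingers read DNA. Several members set blood cell fates: Zbtb7b (ThPOK) and Zbtb16 (Plzf) in T lineages, Zbtb7a (LRF) in lymphoid and red cells, and Zbtb46 in classical dendritic cells. In macrophages Bcl6 represses inflammatory genes, and in mice Zbtb20 has been described as a repressor of Nfkbia transcription in the same cells.

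The knockout label was checked first on the single Bcl6 probe. Normalized log2 intensities were 9.92 and 9.93 on the LPS arrays labelled knockout, against 10.75 and 10.99 on the wild-type LPS arrays. Without LPS they were 12.60 and 12.33 on the arrays labelled knockout, against 10.95 and 10.93 on the wild-type arrays. The probe was thus higher in the unstimulated cells labelled knockout, by 1.53 ± 0.13 (log2 change ± SE, adjusted p = 8.21e-05), and lower under LPS, by a log2 change of -0.94 ± 0.13 (adjusted p = 0.000838). It does not show loss of the transcript, and where it lies relative to the targeted part of the gene is not known here, so the cells are called labelled knockout throughout.

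Over the whole series, 11857 to 13209 probes were detected on an array, fewest on the first LPS array labelled knockout, and 24 to 27 of the Zbtb probes. Of the macrophage markers on the array 7 of 8 were kept, Cd163 being the exception, and none of the 8 classical dendritic cell markers, the 4 T cell, 3 B cell, 2 NK cell, 5 fibroblast or 2 erythroid markers was. All 8 granulocyte markers were kept and were lower in the labelled knockout in both states. Past 2-fold were 8 without LPS and 3 under LPS, against 8.46% and 11.2% of all 8306 genes in either direction. Elane and Prtn3 were detected on no array labelled knockout, so they passed the detection rule through wild type alone and had to be lower. The summed linear level of the 8 markers was 8710 and 9558 on the unstimulated arrays labelled knockout, against 23125 and 25963 on the unstimulated wild-type arrays. Under LPS it was 10048 and 10774 in the labelled knockout, against 18763 and 18913 in wild type. Of the 3 megakaryocyte markers Pf4 alone was kept, and it was higher in the labelled knockout by 2.50 without LPS and 2.83 with it (log2). In such bulk RNA, fewer cells of a type and less RNA per cell cannot be told apart. The part of these cells in the Zbtb differences between genotypes was not tested.

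Upstream sequences are shown for Zbtb5, Zbtb43 and Zbtb45, genes with 1 change each that stayed past an adjusted p of 0.05 under each alternative tried (Zbtb5 with LPS in wild type, Zbtb43 and Zbtb45 probe 1 between genotypes under LPS). The 250 bases upstream of the annotated start are printed 5′ to 3′ on the gene's strand, from RefSeq on GRCm38.p6, with capitals marking the Ets-like letters CCGGAAG. Zbtb5 lies at chr4:45012413-45012662 (minus strand) and has no capitals, Zbtb43 at chr2:33468533-33468782 (minus strand) and Zbtb45 at chr7:13009853-13010102 (minus strand).
Zbtb5: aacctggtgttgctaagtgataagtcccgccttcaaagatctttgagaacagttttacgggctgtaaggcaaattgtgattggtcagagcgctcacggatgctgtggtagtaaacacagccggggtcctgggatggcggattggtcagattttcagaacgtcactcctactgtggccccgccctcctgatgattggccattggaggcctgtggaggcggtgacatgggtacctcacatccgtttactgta
Zbtb43: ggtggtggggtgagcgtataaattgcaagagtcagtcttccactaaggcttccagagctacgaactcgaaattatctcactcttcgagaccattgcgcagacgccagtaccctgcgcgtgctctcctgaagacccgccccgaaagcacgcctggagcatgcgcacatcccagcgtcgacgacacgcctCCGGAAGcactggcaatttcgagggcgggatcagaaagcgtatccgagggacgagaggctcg
Zbtb45: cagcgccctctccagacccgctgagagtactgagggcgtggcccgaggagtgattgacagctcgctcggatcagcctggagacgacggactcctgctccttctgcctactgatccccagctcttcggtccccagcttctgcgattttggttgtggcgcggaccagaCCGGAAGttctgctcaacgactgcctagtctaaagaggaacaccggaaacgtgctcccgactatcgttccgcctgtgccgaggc

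All 19 genes with a kept probe had an annotated start, and their 28 windows of 250 bases had a median GC content of 60.0%, against 52.4% over the 32851 windows of the table. The median number of CpG dinucleotides was 20 in the Zbtb windows and 6 over all windows. CCGGAAG, searched on both strands, stood in 4 of the 28 windows, those of Zbtb33, Zbtb41, Zbtb43 and Zbtb45, against 6.91% of all windows. The Bcl6 core TTCCTNGAA stood in 0 of the 28 and in 1.31% of all, and the wider Stat-like TTCNNNGAA, which contains it, in 0 and in 7.02%. The NF-kappaB-like motif stood in 1 window (Zbtb21) and in 1.41% of all, and the interferon response-like motif in 2 windows of Zbtb18 and in 2.98% of all. The E-box CACGTG stood in 3 windows of Zbtb21 and Zbtb25 and in 6.02% of all, and the AP-1 letters TGANTCA in 0 and in 6.75%. The motifs shown were chosen after hits were seen. Windows of 1 gene can overlap, as chr1:177444403-177444652 and chr1:177444411-177444660 of Zbtb18 do. So do chr12:76369465-76369714 and chr12:76369561-76369810 of Zbtb25, and 1 site can thus count more than once. A match is a description of these letters and not a bound site.

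Across the 28 probes the changes were small. At an adjusted p under 0.05 with at least a 2-fold change, the labelled knockout differed from wild type at 0 of 28 Zbtb probes without LPS, where 7.92% of all 14418 probes were past both thresholds by limma and 12 of the 28 had an unadjusted p under 0.05, against 43.5% of all probes. Under LPS the count was 1 of 28, Zbtb3, against 11.6% of all probes. LPS against no stimulus gave 0 of 28 in the labelled knockout, against 14.0% of all probes, with 8 of the 28 at an unadjusted p under 0.05, against 52.7%. In wild type it gave 1 of 28, Zbtb5, against 13.5%.

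With no minimum fold, 8 of 28 Zbtb probes (28.6%) passed an adjusted p of 0.05 between genotypes without LPS, against 32.4% of all probes, and 11 of 28 (39.3%) under LPS, against 43.3%. These shares lie near those of all probes. LPS moved 5 of 28 (17.9%) past the same threshold in the labelled knockout, against 44.8% of all probes, and 5 of 28 (17.9%) in wild type, against 45.3%. The median absolute log2 change with LPS was 0.19 for the Zbtb probes and 0.37 for all probes in the labelled knockout, and 0.18 and 0.37 in wild type. Between genotypes it was 0.29 for both sets without LPS, and 0.32 and 0.36 under LPS.

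**Figure D1:**
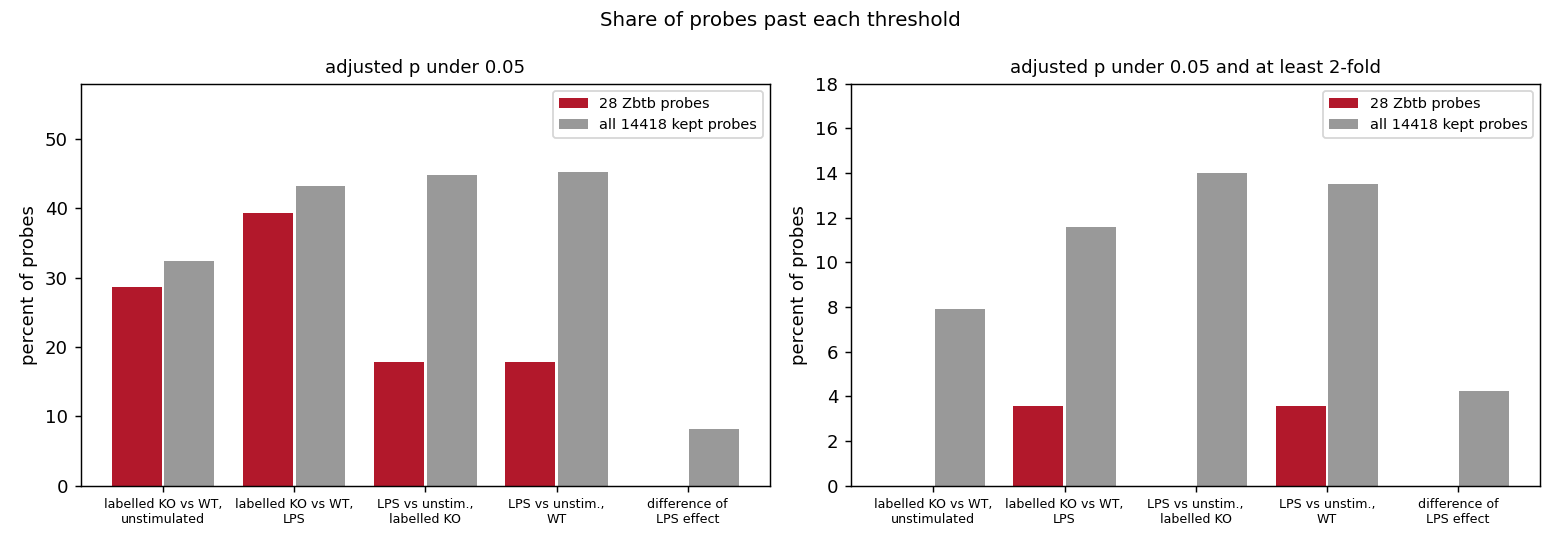
Percent of probes past an adjusted p of 0.05 (left) and past that threshold with at least a 2-fold change (right) in the 5 comparisons, for the 28 Zbtb probes (red) and all 14418 kept probes (grey). The red bars for LPS stand at 17.9% in both genotypes, against 44.8% and 45.3% in grey, while the genotype bars differ less.

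The 95% intervals show what size of change these arrays can bound. Between genotypes without LPS, 23 of 28 intervals lay wholly within a 2-fold change in either direction, against 79.2% of all probes. Under LPS the same count was 23 of 28, against 72.7%. For the LPS effect it was 24 of 28 in the labelled knockout, against 70.8%, and 27 of 28 in wild type, against 71.4%, where only the interval of Zbtb5 reached past 2-fold. SEs of the Zbtb changes ran between 0.11 and 0.25 on the log2 scale.

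Zbtb5, described in human cells as a repressor of the Cdk inhibitor gene CDKN1A, gave the largest LPS difference of the 28 probes. Its log2 intensity was 8.01 and 7.67 in the labelled knockout under LPS, against 7.81 and 7.997 in wild type. Without LPS it was 7.07 and 6.87 on the labelled-knockout arrays, against 6.59 and 5.96 on the wild-type arrays. The LPS arrays were all above the unstimulated arrays, and the lowest array of the 8, a wild-type unstimulated one, was the only one below detection. LPS raised the probe by 1.63 ± 0.21 in wild type (adjusted p = 0.000429, interval 1.14 to 2.12, a 3.09-fold rise) and by 0.87 ± 0.21 in the labelled knockout (adjusted p = 0.0104). Without LPS the labelled knockout was higher by 0.70 ± 0.21 (adjusted p = 0.0367), and under LPS the genotypes differed by -0.06 ± 0.21 (adjusted p = 0.85). The rise in wild type stayed past an adjusted p of 0.05 under each alternative, but its size was 0.93, under 2-fold, with no background correction and 0.96 with the authors' processed values. The genotype difference without LPS had an adjusted p of 0.202 and a log2 change of 0.38 without the second wild-type unstimulated array, and an adjusted p of 0.0517 to 0.167 without either wild-type LPS array or either unstimulated array labelled knockout. The rise in the labelled knockout had an adjusted p of 0.0677 without the second unstimulated array labelled knockout, 0.0602 without the first LPS array labelled knockout and 0.0566 with median scaling.

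Zbtb43, Zbtb45, Zbtb22 and Zbtb18 are singled out next, after their values were seen. Other Zbtb43 probes were detected on no array, among them a probe annotated to the same transcript as the kept probe. The single kept Zbtb43 probe was the Zbtb probe furthest above wild type under LPS. Its log2 intensity was 6.91 and 7.22 on the labelled-knockout LPS arrays, against 5.97 and 6.21 on the wild-type LPS arrays. Without LPS it was 6.35 and 6.26 in the labelled knockout, against 5.70 and 5.94 in wild type, where neither array detected it. The 2 genotypes did not overlap in either state. How many of all kept probes separate in this way was not counted, so such a separation does not set any Zbtb probe apart. The difference was 0.98 ± 0.15 under LPS (adjusted p = 0.0013, a 1.97-fold change). Its size ran from 0.48 to 1.13 over the alternatives. Raw intensities under LPS were 187.3 and 218.3 in the labelled knockout, against 173.1 and 184.8 in wild type. The first wild-type LPS array, at 5.97, lay close to its lowest detected signal of 5.91. Without LPS the fitted difference was 0.48 ± 0.15 (adjusted p = 0.0412), which with an undetected wild-type group means a level at least 1.34-fold above it. Here and below, such a bound sets the brighter group against the lowest detected signal of each array of the dim group. LPS raised it in the labelled knockout by 0.76 ± 0.15 (adjusted p = 0.00417, and 0.0502 with median scaling), and in wild type the fitted difference was 0.27 ± 0.15 (adjusted p = 0.19). The difference without LPS lost its threshold without any single array of the 4 unstimulated ones, with no background correction or a larger offset, with no filter on dim probes and with the authors' processed values, and its adjusted p ran up to 0.196 over all alternatives.

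Zbtb45 was lower in the labelled knockout on both of its probes. Probe 1 read 7.12 and 7.15 on the labelled-knockout LPS arrays, against 8.01 and 8.09 on the wild-type LPS arrays. Without LPS it read 7.61 and 7.69 in the labelled knockout, against 7.96 and 8.38 in wild type. Probe 2 read 6.60 and 6.12 in the labelled knockout under LPS, against 7.09 and 6.97 in wild type, and 6.88 and 6.74 in the labelled knockout without LPS, against 7.63 and 7.51 in wild type. On both probes and in both states every labelled-knockout array lay below every wild-type array. Under LPS probe 1 changed by -0.91 ± 0.15 (adjusted p = 0.00156) and probe 2 by -0.67 ± 0.17 (adjusted p = 0.0121). Without LPS the changes were -0.52 ± 0.15 (adjusted p = 0.0283) and -0.75 ± 0.17 (adjusted p = 0.00947). The difference of probe 1 under LPS stayed past an adjusted p of 0.05 under each alternative. Without LPS probe 1 had adjusted p of 0.157 without the second wild-type array, and 0.124 and 0.0802 without the first or second array labelled knockout. Probe 2 had adjusted p of 0.0542 without the first wild-type array and 0.0603 without the second array labelled knockout, and under LPS 0.0683 and 0.0594 without the same arrays of the LPS groups.

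**Figure D2:**
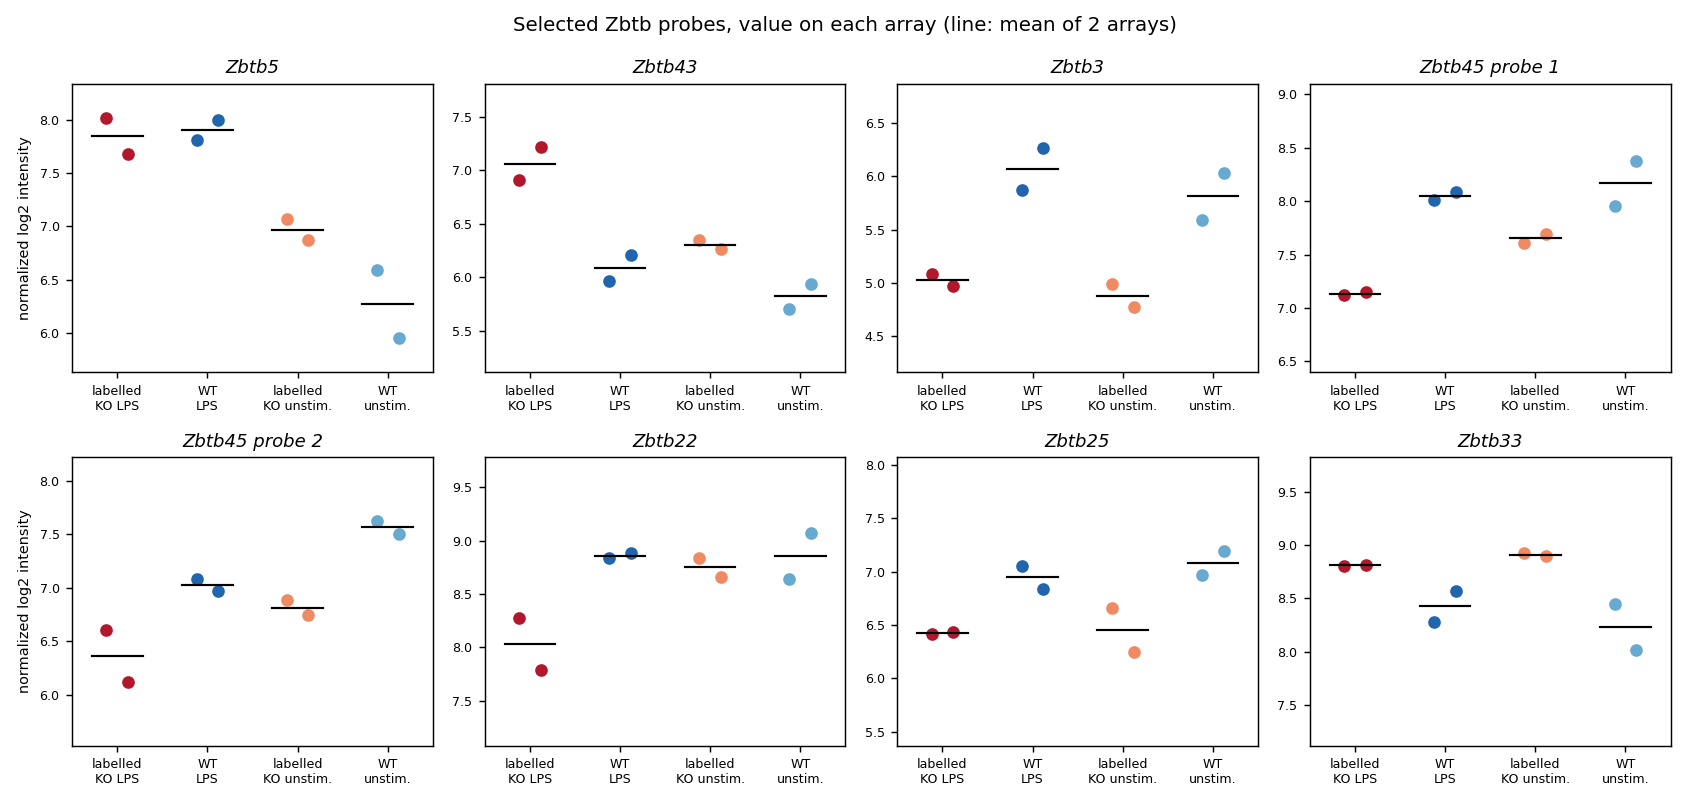
Normalized log2 intensity of selected Zbtb probes on each array, 2 arrays a group, with a line at the group mean. Zbtb5 stands higher on the LPS arrays of both genotypes, Zbtb43 is higher and Zbtb45 lower in the labelled knockout, and each axis has its own range.

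Zbtb3 carried the single 2-fold genotype difference, and it was dim. Its log2 intensity was 5.08 and 4.97 on the labelled-knockout LPS arrays, against 5.87 and 6.26 on the wild-type LPS arrays. Without LPS it was 4.99 and 4.77 in the labelled knockout, against 5.59 and 6.03 in wild type. None of the 4 arrays labelled knockout detected it, and only 1 of 2 wild-type arrays did in each state, so it passed the detection rule through wild type alone and had to be lower in the labelled knockout. The fitted changes were -1.04 ± 0.19 under LPS (adjusted p = 0.00256) and -0.93 ± 0.19 without LPS (adjusted p = 0.00601). As a bound the level was at least 1.02-fold lower in the labelled knockout under LPS and at least 1.00-fold lower without it. Its difference under LPS was below 2-fold with no background correction, with a larger background offset, with cyclic loess, with the authors' processed values and without either the second LPS array labelled knockout or the second wild-type LPS array (log2 change -0.85), where Zbtb43 was past 2-fold in its place. Without LPS it was past 2-fold when the first wild-type or the first labelled-knockout unstimulated array was left out.

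Zbtb22 separated the LPS-treated labelled knockout from the other groups. It read 8.27 and 7.79 on those arrays, against 8.84 and 8.88 on the wild-type LPS arrays. Without LPS it read 8.84 and 8.66 in the labelled knockout, against 8.64 and 9.07 in wild type, where the genotypes overlap. The genotype difference was -0.83 ± 0.19 under LPS (adjusted p = 0.00927) and -0.10 ± 0.19 without it (adjusted p = 0.713). LPS lowered the probe by a log2 change of -0.72 ± 0.19 in the labelled knockout (adjusted p = 0.0164), and in wild type the change was 0.01 ± 0.19 (adjusted p = 0.982). Without the second LPS array labelled knockout, the lowest of the 8, the adjusted p was 0.0519 for the genotype difference and 0.0947 for the LPS difference, and that for the LPS difference was 0.0914 without the first unstimulated array labelled knockout.

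Zbtb25, described as a repressor of NFAT activity in human T cells, was lower in the labelled knockout in both states. It read 6.41 and 6.44 under LPS, against 7.05 and 6.84 in wild type. Without LPS it read 6.66 and 6.25, against 6.97 and 7.19 in wild type. No array labelled knockout reached a wild-type array of the same state. The changes were -0.52 ± 0.16 under LPS (adjusted p = 0.031) and -0.63 ± 0.16 without (adjusted p = 0.0189), and LPS itself changed it by -0.03 in the labelled knockout and -0.14 in wild type (adjusted p = 0.892 and 0.526). Leaving out any single LPS array ended the first, with adjusted p up to 0.16. Leaving out the second wild-type or the second labelled-knockout unstimulated array ended the second, with adjusted p of 0.11 and 0.116.

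Zbtb33 (Kaiso), which binds methylated CpG, had other probes, annotated to a different transcript, that were detected on no array. Its single kept probe was higher in the unstimulated labelled knockout. It read 8.80 and 8.82 in the labelled knockout under LPS, against 8.28 and 8.57 in wild type. Without LPS it read 8.93 and 8.89, against 8.45 and 8.01 in wild type. The genotypes did not overlap in either state. The difference was 0.68 ± 0.16 without LPS (adjusted p = 0.0138) and 0.38 ± 0.16 with it (adjusted p = 0.0895). Without LPS the adjusted p was 0.0817 without the second wild-type array, and 0.0686 and 0.0581 without the first or second array labelled knockout.

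Zbtb24, mutated in a form of human immunodeficiency with centromere instability, was lower in the unstimulated labelled knockout and lower with LPS in wild type. It read 7.601 and 7.57 in the labelled knockout under LPS, against 7.72 and 7.82 in wild type. Without LPS it read 7.73 and 7.67, against 8.19 and 8.06 in wild type. The unstimulated wild-type arrays were thus the highest of the 8. The genotype change was -0.42 ± 0.11 without LPS (adjusted p = 0.0199) and -0.18 ± 0.11 with it (adjusted p = 0.22). LPS changed it by -0.36 ± 0.11 in wild type (adjusted p = 0.029) and by -0.11 ± 0.11 in the labelled knockout (adjusted p = 0.428). The genotype change had adjusted p of 0.105 without the first wild-type array, and 0.0623 and 0.0942 without the first or second array labelled knockout. The LPS change in wild type lost its threshold without any 1 of the 4 wild-type arrays, with median scaling and with cyclic loess (adjusted p up to 0.14).

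**Figure D3:**
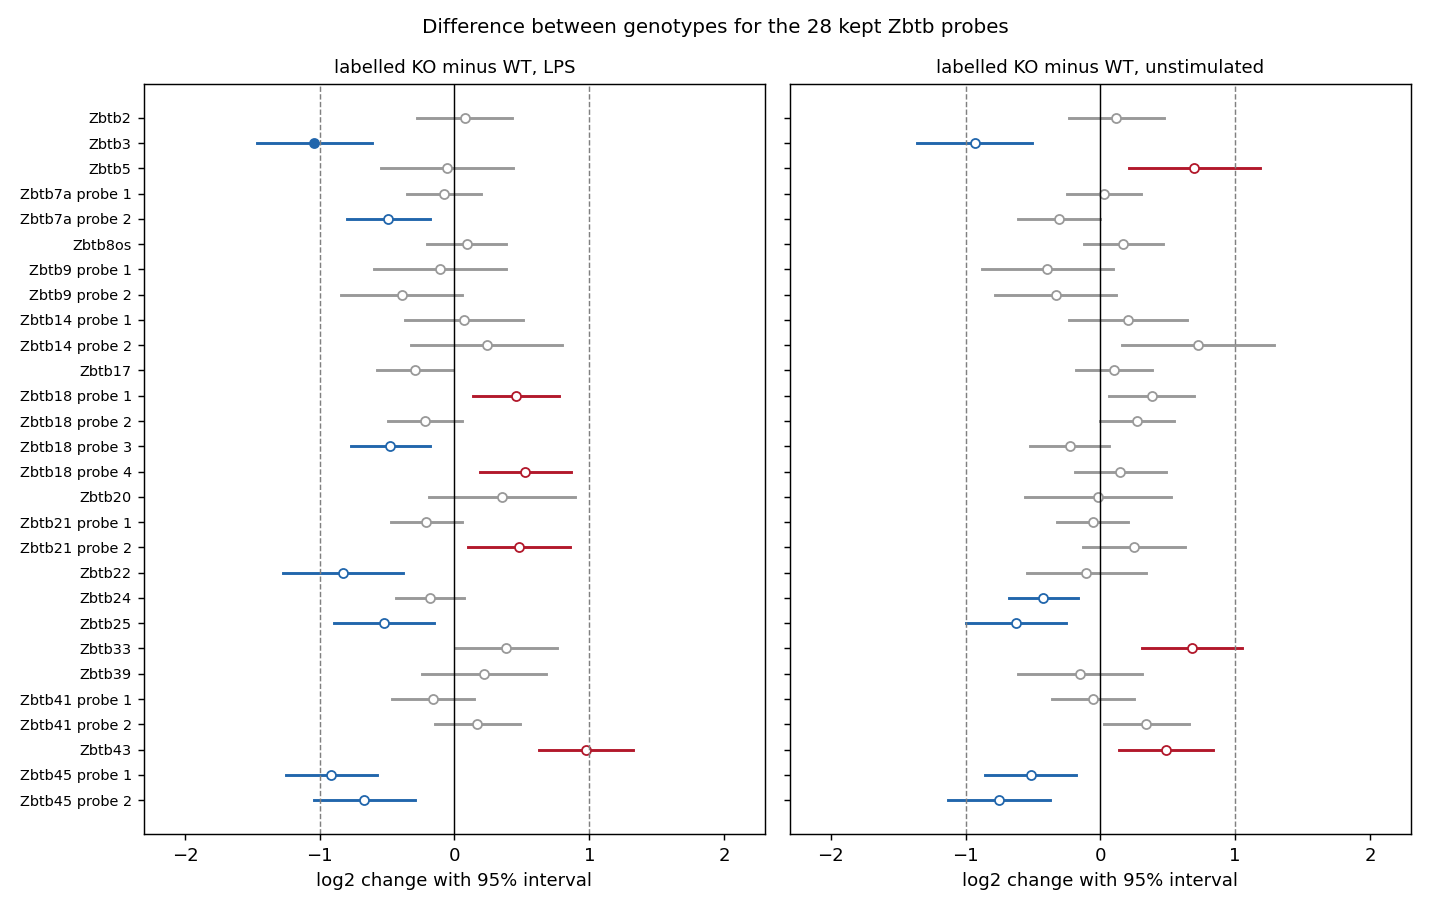
Log2 change of the 28 kept Zbtb probes, labelled knockout minus wild type, under LPS and unstimulated, with 95% intervals and dashed lines at a 2-fold change. Coloured points passed an adjusted p of 0.05 (red higher, blue lower), and Zbtb43 and Zbtb45 probe 1 under LPS stand furthest out among probes detected on both arrays of both groups.

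For Zbtb17, Zbtb20 and Zbtb7a, kept members with known roles in immune cells, every 95% interval of the 4 comparisons between groups lay within a 2-fold change. Zbtb17 (Miz1), a partner of Myc and of Bcl6 on promoters, rose with LPS in wild type. It read 10.07 and 10.07 in the labelled knockout under LPS, against 10.33 and 10.38 in wild type, and 10.03 and 10.18 in the labelled knockout without LPS, against 10.12 and 9.89 in wild type. LPS raised it by 0.35 ± 0.12 in wild type (adjusted p = 0.0446), a rise whose adjusted p was over 0.05 in 9 of 17 alternatives, the replicate block and 7 of the 8 left-out arrays among them (up to 0.234). In the labelled knockout the LPS change was -0.03 ± 0.12 (adjusted p = 0.847).

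Zbtb20, the member described as a repressor of Nfkbia in mouse macrophages, did not pass in any comparison. It read 6.84 and 7.41 in the labelled knockout under LPS, against 6.89 and 6.65 in wild type. Without LPS it read 6.94 and 6.92, against 7.26 and 6.64 in wild type. The 2 arrays of the labelled knockout under LPS, and those of unstimulated wild type, lay further apart than the genotype means of the same state. The genotype change was 0.35 under LPS (interval -0.19 to 0.90) and -0.02 without (interval -0.56 to 0.53).

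Zbtb7a (LRF) was represented by 2 probes, annotated to different sequences, of which probe 2 alone passed between genotypes under LPS. Both changes had the same sign there, and a difference between the probes was not tested. Probe 1 read 9.86 and 9.96 in the labelled knockout under LPS, against 9.91 and 10.07 in wild type, and 9.75 and 9.88 without LPS, against 9.86 and 9.72 in wild type. Probe 2 read 7.49 and 7.48 in the labelled knockout under LPS, against 7.95 and 7.999 in wild type, and 7.68 and 7.80 without LPS, against 8.21 and 7.88 in wild type. Under LPS probe 2 was lower by a log2 change of -0.49 ± 0.13 (adjusted p = 0.018), and probe 1 differed by -0.08 ± 0.12 (adjusted p = 0.628). Probe 2 no longer passed when any 1 of the 4 LPS arrays was left out.

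Zbtb18 (RP58), a repressor known from neuronal differentiation, had 4 kept probes, and they disagreed. Probes 1, 2 and 4 were annotated to the same transcript and probe 3 to a different one. Under LPS probe 1 read 9.47 and 9.40 in the labelled knockout, against 8.85 and 9.11 in wild type, and probe 4 read 6.80 and 6.82, against 6.50 and 6.06. Probe 3 read 8.57 and 8.58 in the labelled knockout, against 9.07 and 9.03 in wild type. Probe 2 read 8.70 and 8.81, against 9.06 and 8.88. Probes 1 and 4 were higher in the labelled knockout by 0.46 ± 0.14 (adjusted p = 0.0281) and 0.53 ± 0.15 (adjusted p = 0.021). Probe 3 was lower, by a log2 change of -0.48 ± 0.13 (adjusted p = 0.0167), and probe 2, with a change of -0.22 ± 0.12, did not pass (adjusted p = 0.173). So the gene as a whole has no single direction here. Each of the 3 changes lost its threshold without either LPS array labelled knockout. The same held without the first wild-type LPS array for probe 1, the second for probe 4 and either for probe 3. With median scaling the adjusted p was 0.404 for probe 1 and 0.253 for probe 4.

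**Figure D4:**
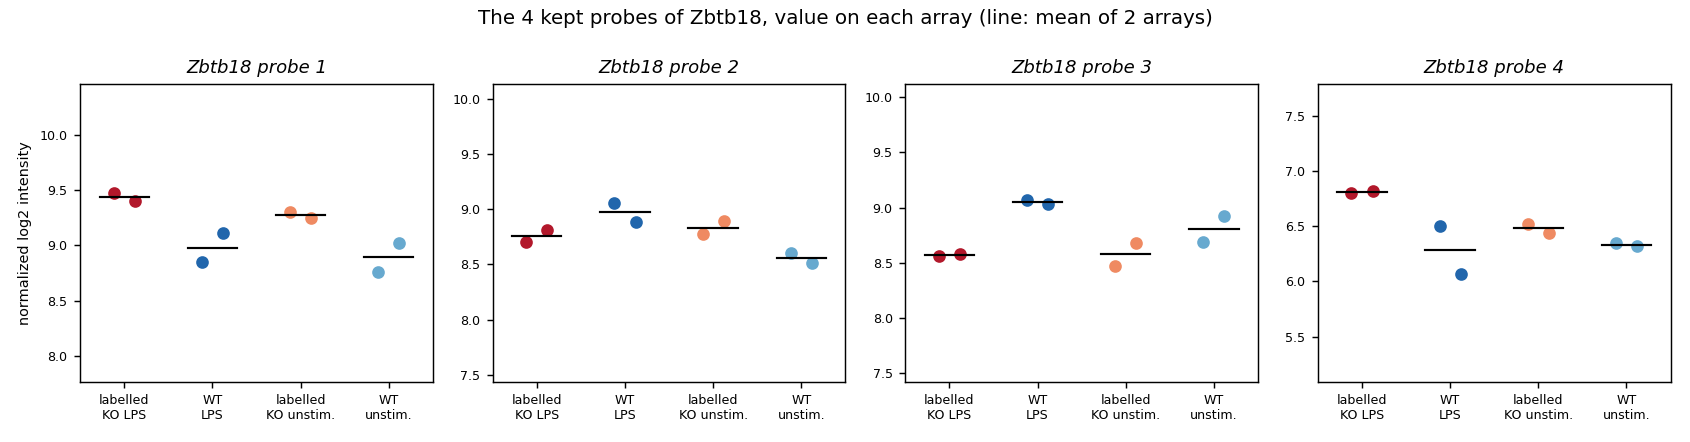
Normalized log2 intensity of the 4 kept Zbtb18 probes on each array, with a line at the mean of 2 arrays. The panels have axes of equal span and different position. Under LPS probes 1 and 4 stand higher in the labelled knockout and probe 3 lower.

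Among the remaining members, Zbtb21 probe 2 was higher in the labelled knockout under LPS by 0.48 (adjusted p = 0.045) and higher with LPS in the labelled knockout by 0.49 (adjusted p = 0.04). Both changes lost their threshold with median scaling (adjusted p of 0.509 and 0.431). They also lost it without any 1 of the 4 LPS arrays and without either unstimulated array labelled knockout. Zbtb21 probe 1 passed in none of the comparisons. Zbtb18 probe 2 rose with LPS in wild type, by 0.41 ± 0.12 (adjusted p = 0.0219), and lost its threshold without either wild-type unstimulated array or the first wild-type LPS array (adjusted p up to 0.127). Zbtb45 was also lower with LPS, on probe 1 in the labelled knockout (-0.52 ± 0.15, adjusted p = 0.021) and on probe 2 in wild type (-0.54 ± 0.17, adjusted p = 0.0275). Neither of these Zbtb45 changes passed when any 1 of the 4 arrays compared was left out. Zbtb2, Zbtb8os, Zbtb9, Zbtb14, Zbtb39 and Zbtb41 had no probe that passed in any comparison.

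**Figure D5:**
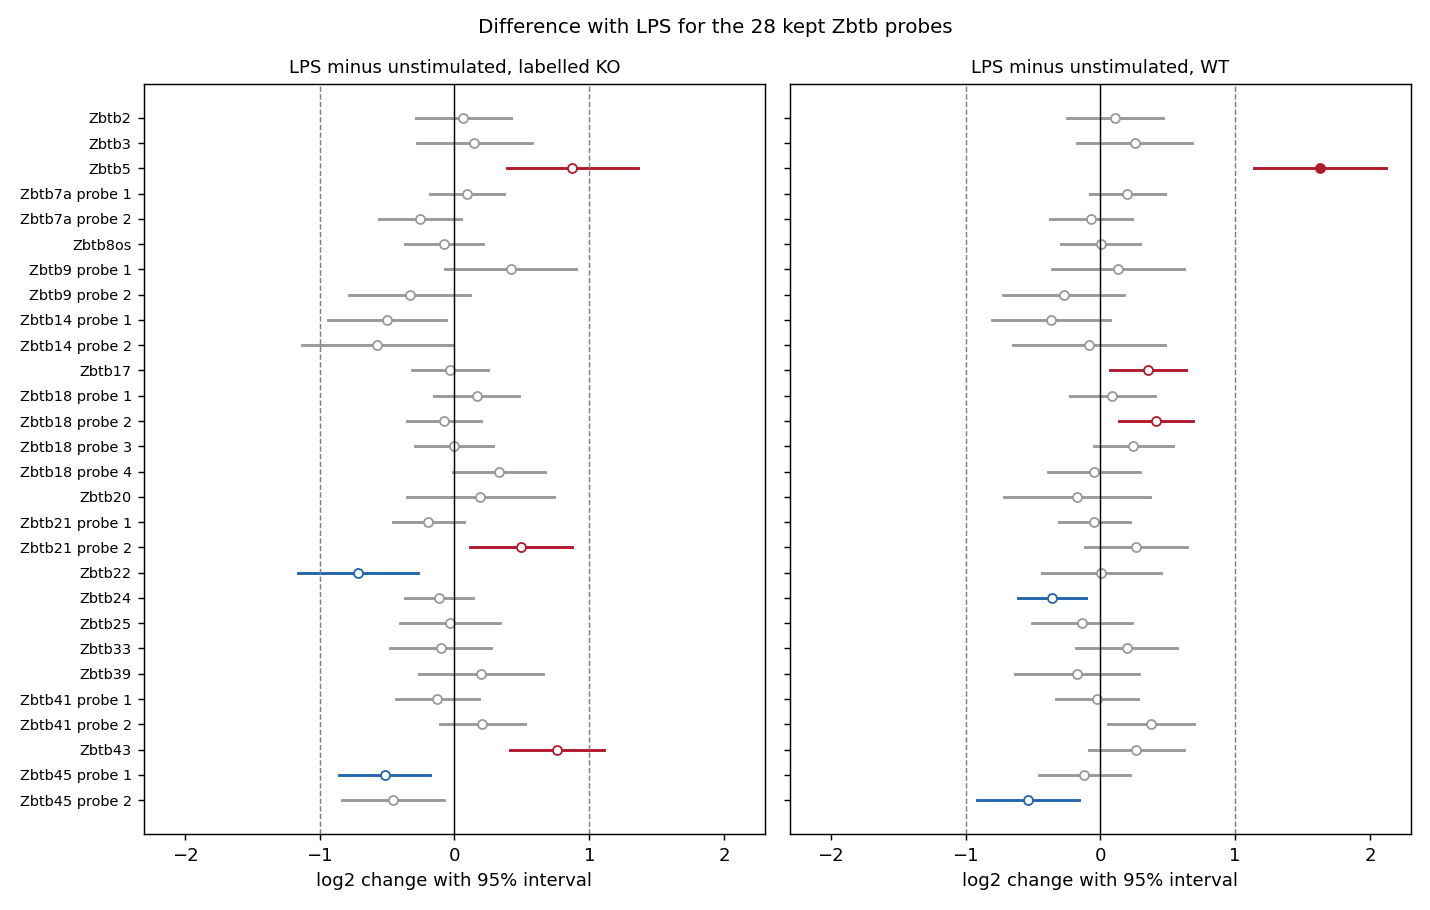
Log2 change of the 28 kept Zbtb probes, LPS minus unstimulated, in the labelled knockout and in wild type, with 95% intervals and dashed lines at a 2-fold change. Zbtb5 in wild type is the only probe past 2-fold, at 1.63, and most other points lie within 0.5 of 0.

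The direction of the changes that passed was mixed. Under LPS the labelled knockout passed as higher at 4 of 28 Zbtb probes (14.3%, against 20.2% of all probes). It passed as lower at 7 (25%, against 23.1%). Without LPS it was higher at 3 of 28 (10.7%, against 16.3%) and lower at 5 (17.9%, against 16.1%). With LPS, 3 of 28 were higher in the labelled knockout (10.7%, against 19.2%) and 2 lower (7.14%, against 25.6%). In wild type 3 of 28 were higher with LPS (10.7%, against 20.4%) and 2 lower (7.14%, against 24.9%). The split depended on the scaling of the arrays: with median scaling, which puts the median of all probes at -0.30 between genotypes under LPS and at -0.25 for LPS in the labelled knockout, the splits were 1 higher and 13 lower (10.9% and 39.9% of all probes), and 0 higher and 7 lower (13.1% and 35.1% of all probes). Relative to those medians they were 3 and 7, and 2 and 3, where the share of all probes was not counted. For LPS in wild type the split was 4 higher and 1 lower under median scaling (20.6% and 20.5% of all probes).

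Whether LPS acted differently in the 2 genotypes was tested as the difference of the LPS effect, labelled knockout minus wild type. By limma 0 of 28 Zbtb probes passed an adjusted p of 0.05, against 8.24% of all probes and 4.22% with a 2-fold difference, and 3 of 28 had an unadjusted p under 0.05, against 25.1%. These were Zbtb18 probe 2 (-0.49 ± 0.17, adjusted p = 0.116), Zbtb22 (-0.72 ± 0.27, adjusted p = 0.144) and Zbtb5 (-0.75 ± 0.30, adjusted p = 0.165). For Zbtb43 the difference was 0.49 ± 0.22 (adjusted p = 0.201). The 95% interval lay within 2-fold for 23 of 28 Zbtb probes, against 71.8% of all probes. That of Zbtb5 ran from -1.44 to -0.06, so a smaller rise of Zbtb5 in the labelled knockout is not established after adjustment.

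Of the 68 Zbtb probes 40 were not kept. They belonged to 19 genes with no kept probe, among them the lymphoid and dendritic factors Zbtb7b, Zbtb16, Zbtb32, Zbtb46 and Zbtb1, together with Zbtb11, and to genes with another probe that was kept. The latter were Zbtb8os, Zbtb14, Zbtb18, Zbtb20, Zbtb21, Zbtb33 and Zbtb43. Raw intensities of the 40 probes ran between 80.3 and 173.4, and 39 of the 40 were detected on no array. The other genes with no kept probe were Zbtb6, Zbtb7c, Zbtb8a, Zbtb8b, Zbtb10, Zbtb26, Zbtb34, Zbtb37, Zbtb38, Zbtb40, Zbtb42, Zbtb44 and Zbtb49. Just outside the rule stood Zbtb38, detected on 1 array at raw intensities of 119.5 to 173.4. Just inside it, on 2 arrays each, stood Zbtb3 and both probes of Zbtb14. Both Zbtb14 probes were detected on the unstimulated arrays labelled knockout alone, so they passed the rule through that group only. The raw intensity of Zbtb14 probe 1 was 162.1 and 164.1 on those arrays, against 167.5 and 164.3 on the unstimulated wild-type arrays. For the probes that were not kept a level was not detectable, which does not show that the gene is silent.

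Related genes were read from lists by 1 brightest probe a gene. Of 5 other tested BTB zinc-finger genes without a Zbtb symbol, Zfp131 rose with LPS, by 0.94 in the labelled knockout (adjusted p = 0.000243) and by 1.39 in wild type (adjusted p = 2.82e-05). It was lower in the labelled knockout under LPS, by a log2 change of -0.72 (adjusted p = 0.00128). Gzf1, Hic2 and Mynn had no 2-fold change. Of 16 tested corepressor and Cul3 genes, 0 were past 2-fold between genotypes in either state, against 8.46% of the 8306 genes without LPS and 11.2% with it. With LPS 2 of the 16 were past 2-fold and lower in each genotype, against 14.8% of genes in the labelled knockout and 14% in wild type. The deacetylase gene Hdac5 changed with LPS by -2.03 in the labelled knockout and by -1.99 in wild type on the log2 scale, and Tbl1xr1, a subunit of corepressor complexes, by -1.46 in the labelled knockout and by -1.90 in wild type. With no minimum fold, 1 of the 16 was higher and 3 lower in the labelled knockout under LPS, against 42.4% of the 8306 genes in either direction. Without LPS 1 was higher and 2 lower, against 33.9% of the genes. The lower ones under LPS were Hdac5 (-0.62), Mta3 (-0.40) and Sin3a (-0.61), and without LPS Hdac5 (-0.58) and Mta3 (-0.70). Bcor was higher in the labelled knockout by 0.67 under LPS (adjusted p = 0.0071) and by 0.52 without it (adjusted p = 0.0272).

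Among 33 tested BTB genes without zinc fingers, 4 were higher and 1 lower past 2-fold in the labelled knockout in each state, where 11.2% of all genes were past 2-fold under LPS and 8.46% without it. Rhobtb1, among the 4 higher, was detected on no wild-type array. It thus passed the detection rule through the labelled knockout alone and had to be higher there. As a bound its level in the labelled knockout was at least 9.11-fold higher under LPS and at least 14.6-fold higher without it. The lower gene was Enc1, detected on neither LPS array labelled knockout, so that it was at least 1.24-fold lower under LPS, with a change of -1.37 (log2) without LPS. Ivns1abp was higher by 1.70 under LPS and 1.64 without. Klhl6 was higher by 1.56 under LPS and 1.33 without, and its log2 change with LPS was -2.52 in the labelled knockout and -2.76 in wild type. Of 11 tested genes described as targets of Zbtb factors, 3 were higher with LPS past 2-fold in each genotype, and 2 were lower in the labelled knockout and 1 in wild type, against 14.8% of all genes in the labelled knockout and 14% in wild type in either direction. The lower ones were Ccnd1, at -4.42 in the labelled knockout and -3.46 in wild type, and in the labelled knockout also Bcl6. Cdkn1a, which Zbtb5 and Zbtb17 have been described to bind, rose by 2.37 in the labelled knockout and by 2.83 in wild type, and Nfkbia rose by 2.31 and by 2.36. Cdkn2b rose by 1.83 in the labelled knockout and by 3.17 in wild type, and was lower in the labelled knockout under LPS by a log2 change of -3.46.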

How the data were processed

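Expression was measured on 8 single-colour Illumina bead arrays in 4 groups, taken from the labels. The authors deposited a raw mean bead intensity and a detection p-value for each probe, and a second table of processed intensity, used as an alternative. GenomeStudio is named in the submitters' processing notes. How the processed table was normalized is not given in the sources here.

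Background correction of the raw values used limma 3.58.1 in R 4.3.3 (the nec function with an offset of 16 and controls inferred from detection). The arrays were then quantile-normalized after log2 transformation. Of 45281 probes 14418 were kept, by a detection p under 0.01 on 2 or more arrays. A single limma fit of 4 group means (lmFit, eBayes) over all 8 arrays had 4 residual and 4.36 prior degrees of freedom. P-values were Benjamini-Hochberg adjusted over all kept probes within each of 5 contrasts. A probe passed at an adjusted p under 0.05, and was called at that and at least a 2-fold change. Values are log2 change ± SE. Arrays give no count depth, so the number of arrays limits precision.

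Symbols came from the platform annotation, with 34885 probes of 1 gene symbol, 18 of several and 10378 unnamed here. Related gene lists used the brightest kept probe a gene, 8306 genes. Upstream sequences are RefSeq's (GRCm38.p6). Columns of samples outside the series numbered 0. The rule gave values on each array to probes called in any contrast and to kept members with a known immune role. The members and lists were chosen with earlier results of these data known. Technical replicate numbers did not pair the arrays: deviations of same-numbered arrays correlated at -0.02 to 0.01.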

Additional observations from a re-analysis of the deposited data

How the results depend on the processing

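Of 29 Zbtb probe changes that passed, all 29 kept their sign under each alternative tried, and 5 stayed past an adjusted p of 0.05 wherever tested. These were Zbtb43 and Zbtb45 probe 1 between genotypes under LPS, Zbtb5 with LPS in wild type, and Zbtb3 in both states. Zbtb3 was detected in wild type alone, so that its stability supports nothing. The 29 were picked for passing on these arrays, which the alternatives reuse, so a kept sign is no independent support. How many of all passing probes kept sign or threshold was not counted, so neither count sets the Zbtb probes apart. With no filter on dim probes an adjusted p over 0.05 was reached by Zbtb5, Zbtb43 and Zbtb45 probe 1 (genotypes, unstimulated), Zbtb18 probe 1, Zbtb21 probe 2 and Zbtb25 (genotypes, LPS), Zbtb17, Zbtb24 and Zbtb45 probe 2 (LPS in wild type) and Zbtb21 probe 2 (LPS in the labelled knockout). Counts past 2-fold moved as follows. With no minimum fold they were 8 between genotypes without LPS, 11 under LPS, and 5 with LPS in each genotype. Under LPS the genotype count of 1 became 0 with no background correction, an offset of 50, cyclic loess, detection on both arrays of a group, or the authors' processed values, and 3 (Zbtb22, Zbtb3 and Zbtb45 probe 1) with median scaling, where 14% of all probes were called and, relative to the median of all probes (-0.30), 0 Zbtb probes were. The share of all probes past 2-fold relative to that median was not counted. With detection on both arrays Zbtb3 was no longer tested. The count of 1 for LPS in wild type became 0 with no background correction or the authors' processed values. Leaving out a single array left 1 array in its group, and the probes called then moved as follows. No share of all probes is set beside these calls, so they do not set the Zbtb probes apart. Without the first wild-type unstimulated array Zbtb14 probe 2, Zbtb3 and Zbtb5 were called, and without the first unstimulated array labelled knockout Zbtb3. Without the first LPS array labelled knockout Zbtb22, Zbtb3 and Zbtb43 were called between genotypes, without the second none was, and without the second wild-type LPS array Zbtb43 was called in place of Zbtb3. Without the second LPS array labelled knockout Zbtb5 was called for LPS in the labelled knockout. The replicate block gave 0 and 1 between genotypes without and with LPS, 0 and 1 for LPS in the labelled knockout and in wild type, and 0 for the difference, the same counts as without the block. The count for the difference of the LPS effect was 0 under each alternative that kept all 8 arrays. At an adjusted p alone it was 1 with no background correction, the authors' processed values or median scaling. Of all probes 15.7%, 14.4% and 12.3% passed there. The causes were not tested. The background offset and the filter were chosen with earlier results known, and the 95% intervals against 2-fold were added after seeing the data. Dim probes such as Zbtb3, Zbtb14 and, in wild type, Zbtb43 lie close to background, which limits what their differences can show. Zbtb14 probe 2 was detected in the unstimulated labelled knockout alone, so a call of it as higher there supports nothing.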
